A study of Mus musculus with 35 samples.

Results

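Gamma-aminobutyric acid (GABA) is the main inhibitory transmitter of the adult brain, and 9 genes that make it, pack it, clear it, set the chloride gradient it acts through or form its metabotropic receptor are described here, out of the 32544 genes in the count tables. They were chosen by role and not by their level: Gad1 and Gad2 for synthesis, Slc32a1 for vesicular loading, Slc6a11 for uptake, Abat for breakdown, Slc12a5 and Slc12a2 for chloride transport, and Gabbr1 and Gabbr2 for the GABA-B receptor. All 9 were in the tables and all 9 passed the filter on low counts in every comparison. The lowest count of any of them in a library that was used was 30, for Slc6a11 in the input library of KA mouse 5 at 2 weeks.

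Inhibitory neurons convert glutamate to GABA with glutamate decarboxylase, fill vesicles through the vesicular transporter and release it onto ionotropic receptors that pass chloride and onto GABA-B receptors that act through G proteins. Astrocytes and terminals take GABA back up, and the transaminase breaks it down. Whether chloride flows in or out of a neuron when the channel opens depends on the balance between a transporter that extrudes chloride and another that loads it, which is why this group of genes is followed in models of temporal lobe epilepsy.

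The study asked how N6-methyladenosine (m6A), a methyl mark on RNA, changed in the mouse hippocampus after status epilepticus. Male C57BL/6JOlaHsd mice received kainic acid (KA) or vehicle (PBS) into the amygdala through an implanted cannula, followed in the KA mice by lorazepam to limit the seizures, and hippocampi were taken at 24 h or at 2 weeks, when the KA mice have spontaneous seizures. Whether PBS mice also received lorazepam is not given in the sources used here. RNA of 19 mice was sequenced after pulldown with an antibody to m6A and, for 16 of them, also without pulldown as input. KA mouse 79 of 24 h and PBS mice 50 and 78 of 2 weeks had no input library. A level in the m6A libraries reflects both how much of a transcript there was and how much of it carried the mark. The m6A libraries came from 5 KA and 3 PBS mice at 24 h and from 6 KA and 5 PBS mice at 2 weeks. The input libraries that held at least 100000 counts came from 3 KA mice and 1 PBS mouse at 24 h and from 6 KA and 3 PBS mice at 2 weeks.

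The mark is placed on an adenosine in a short word of which GGACT is the best known form. The antibody of the pulldown selects the mark and not the word. The following stretches show the last such word in the coding sequence of 4 members. They are from the GENCODE M39 canonical transcripts, 5′ to 3′, with the word in capitals and positions counted from the A of the start codon, and they are examples of the word and not sites measured here.
Gad1 (position 1132): ggggtggtGGACTgctcatgt
Gad2 (position 1388): agcaaaggGGACTactgggtt
Slc6a11 (position 1111): caggtcctGGACTggctttca
Slc12a5 (position 3087): ggcatcaaGGACTtcttcagc
On the transcript strand, GGACT occurred 4 times in the coding sequence of Slc12a5, of Gabbr1 and of Gabbr2, 3 times in Slc6a11, 2 times in Gad2 and in Slc12a2, and 1 time in Gad1 and in Slc32a1. The coding sequence of Abat, 1500 bases long, did not hold these letters. Of 21464 canonical coding sequences, 72.3% held the word at least 1 time, and the median was 1.04 words per kilobase. Gad1 had 0.56 words per kilobase of coding sequence and Slc6a11 had 1.59.

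Totals ranged from 1652933 to 34564536 counts in the 19 m6A libraries and from 3057578 to 12694434 in the 13 input libraries used, and 3 input libraries with 3171 to 34486 counts were left out. The shallowest m6A libraries were those of KA mice 98 and 67 of 24 h, at 1652933 and 1979606 counts, and the next held 6579414. Levels are given as CPM, a gene's counts scaled to the total of its own library. The column names of the m6A libraries start with 3, 4 or 5, here called library sets, whose meaning is not given in the sources used here. Set 3 held KA mice only (3 at each time), set 4 held 2 KA and 2 PBS mice at 24 h and 2 PBS mice at 2 weeks, and set 5 held 1 PBS mouse at 24 h and 3 KA and 3 PBS mice at 2 weeks. The libraries of KA mouse 8 at 24 h stood apart in both assays, with 28496 genes detected and 16.4% mitochondrial counts in m6A and 28574 genes and 17.4% in input. The m6A library of KA mouse 6 at 2 weeks was near it in both respects, with 27003 genes and 17.5%, but its input library was not (20865 genes and 4.25%). Of the 9 members, 6 had their lowest level of all 19 m6A libraries in mouse 8 and 6 their lowest of all 13 input libraries there. Marker genes of the hippocampus were present in all groups, with the sum of Prox1, Neurod6, Zbtb20, C1ql2 and Wfs1 at 398 to 1717 CPM. In tissue, fewer cells of a type and less RNA per cell cannot be told apart.

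None of the 9 members passed the test between KA and PBS mice in either assay or at either time. In m6A libraries at 24 h, 0 of 9 members passed at an adjusted p of 0.05 (edgeR quasi-likelihood test, Benjamini-Hochberg over all genes), against 0.00607% of 16470 genes, which was the single gene Tm4sf1, a membrane protein gene of endothelial cells named after its value was seen (log2 fold change 3.42, SE 0.27, adjusted p = 0.0028). At 2 weeks 0 of 9 members and 0% of 16157 genes passed. In input, 0 of 9 members and 0% of 17644 genes passed at 24 h, and 0 of 9 and 0% of 13752 genes at 2 weeks. At an unadjusted p under 0.05, no member passed in m6A libraries or in input at 2 weeks and Gad1 alone passed in input at 24 h, beside 875, 809, 1628 and 1938 genes in these 4 comparisons. DESeq2 called 0 members in all 4. The median log2 fold change of the members was -0.15 in m6A at 24 h, beside 0.08 over all genes, and -0.10 beside -0.00 at 2 weeks. In input it was -0.11 beside 0.27 at 24 h and 0.10 beside 0.02 at 2 weeks.

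**Figure D1:**
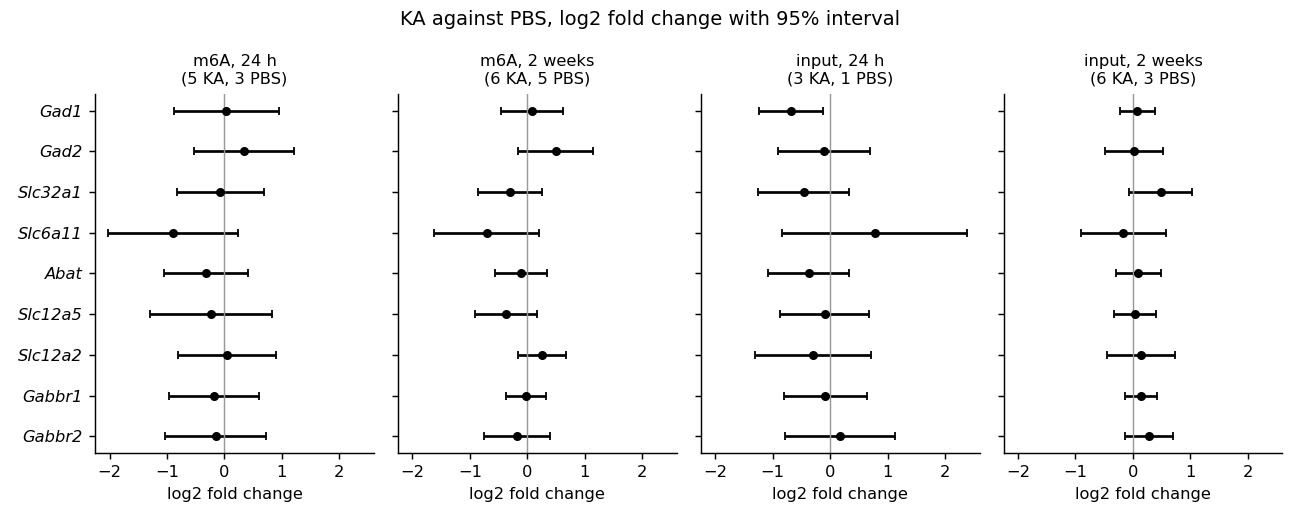
Log2 fold change of each member in KA against PBS mice, with its 95% confidence interval from the edgeR fit, in m6A libraries (2 left panels) and input libraries (2 right panels). Within each assay the interval of every member is wider at 24 h than at 2 weeks, and every interval but that of Gad1 in input at 24 h spans 0.

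The synthetic enzymes Gad1 (GAD67, which supplies the basal pool of GABA; chromosome 2, 70561303 to 70602014, GRCm38) and Gad2 (GAD65, which sits at terminals; chromosome 2, 22621015 to 22693877) had overlapping levels in KA and PBS mice in the m6A libraries. Gad1 at 24 h was at 77.4, 68.7 and 122 CPM in PBS mice 71, 73 and 1, and at 170, 124, 58.6, 52.3 and 65.7 CPM in KA mice 67, 98, 97, 79 and 8. The KA mice lay on both sides of the PBS mice: both set 3 mice other than mouse 8 were higher than every PBS mouse, and the remaining KA mice were lower than every PBS mouse. The means were 94.1 ± 51.1 CPM (SD, n = 5) in KA and 89.4 ± 28.7 CPM (SD, n = 3) in PBS mice, with a log2 fold change of 0.03 (95% interval -0.88 to 0.94; edgeR adjusted p = 0.995) that turned to -0.52 (SE 0.30) with library set as a block.

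Gad2 at 24 h was at 71.1, 55.9 and 128 CPM in the PBS mice and at 183, 136, 74.9, 72.0 and 82.2 CPM in the KA mice in the same order, with a log2 fold change of 0.33 (95% interval -0.53 to 1.202; edgeR adjusted p = 0.983). At 2 weeks Gad1 was at 68.5, 81.9, 114, 125 and 145 CPM in PBS mice 50, 78, 2, 3 and 4, and at 78.1 to 151 CPM with a median of 97.5 in KA mice. Within the PBS mice, the lowest Gad1 values were those of the set 4 mice 50 and 78. Gad2 at 2 weeks was at 62.6, 66.2, 125, 155 and 70.2 CPM in the same PBS mice and at 81.6 to 202 CPM with a median of 118 in KA mice. Its log2 fold change was 0.49 (95% interval -0.16 to 1.15; edgeR adjusted p = 0.875), the largest positive difference among the members in m6A libraries, and the groups overlapped.

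In input RNA, Gad1 gave the only interval that did not reach 0. It was at 246 CPM in the single PBS mouse of 24 h, mouse 1, and at 122, 107 and 139 CPM in KA mice 67, 98 and 8, a log2 fold change of -0.68 (SE 0.26, 95% interval -1.24 to -0.13) with an unadjusted p of 0.0196 from the edgeR model and an adjusted p of 0.457. PBS mouse 1 had the highest Gad1 of all 13 input libraries, and the next was KA mouse 21 of 2 weeks at 174 CPM. The summed level of 12 other inhibitory neuron markers (Sst, Npy, Pvalb, Vip, Cort, Reln, Lhx6, Dlx1, Erbb4, Nxph1, Calb2 and Adarb2) was also at its highest in that mouse, 523 CPM against 307 to 395 CPM in the KA mice, and its part in the Gad1 difference was not tested. At 2 weeks, with 3 PBS mice, Gad1 was at 135, 132 and 119 CPM in PBS and at 115 to 174 CPM with a median of 124 in KA mice (log2 fold change 0.07, 95% interval -0.23 to 0.38). Gad2 in input was at 174 CPM in PBS mouse 1 and at 144, 121 and 127 CPM in the 24 h KA mice. At 2 weeks Gad2 was at 119, 133 and 112 CPM in PBS mice, and KA mouse 7 at 227 CPM was far above the other KA mice, which lay between 91.7 and 114 CPM. That mouse also had the highest Gad2 of all 19 m6A libraries, at 202 CPM.

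Slc32a1 (VGAT, which loads GABA and glycine into vesicles; chromosome 2, 158607260 to 158615747) followed no common order between the groups. In m6A libraries at 24 h it was at 41.8, 34.8 and 21.6 CPM in PBS mice 71, 73 and 1 and at 52.5, 39.3, 26.9, 29.6 and 15.4 CPM in KA mice 67, 98, 97, 79 and 8 (log2 fold change -0.07, 95% interval -0.82 to 0.68, and 0.05 with an SE of 0.31 without KA mouse 8). At 2 weeks it was at 37.7, 32.6, 22.3, 24.4 and 24.0 CPM in PBS mice 50, 78, 2, 3 and 4 and at 14.8 to 38.2 CPM with a median of 18.4 in KA mice (log2 fold change -0.30, 95% interval -0.85 to 0.25), but the value turned to 0.082 (SE 0.33) with library set as a block and 0.10 (SE 0.35) within set 5. The last 2 values rest on the same contrast, since set 5 was the only set with both treatments at 2 weeks. With all mice of 24 h and library set as a block, the 24 h value was -0.56 (SE 0.39). The groups overlapped at both times. In input at 24 h, the 3 KA mice were close together, at 21.1, 20.0 and 19.8 CPM, and PBS mouse 1 was at 34.7 CPM. At 2 weeks the input libraries of PBS mice were at 14.2, 16.3 and 14.3 CPM and KA mice at 15.6 to 36.2 CPM with a median of 17.7, a log2 fold change of 0.48 (95% interval -0.06 to 1.02; edgeR adjusted p = 0.401). KA mouse 21 held the highest value there, 36.2 CPM, with the other 5 KA mice between 15.6 and 19.2 CPM.

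**Figure D2:**
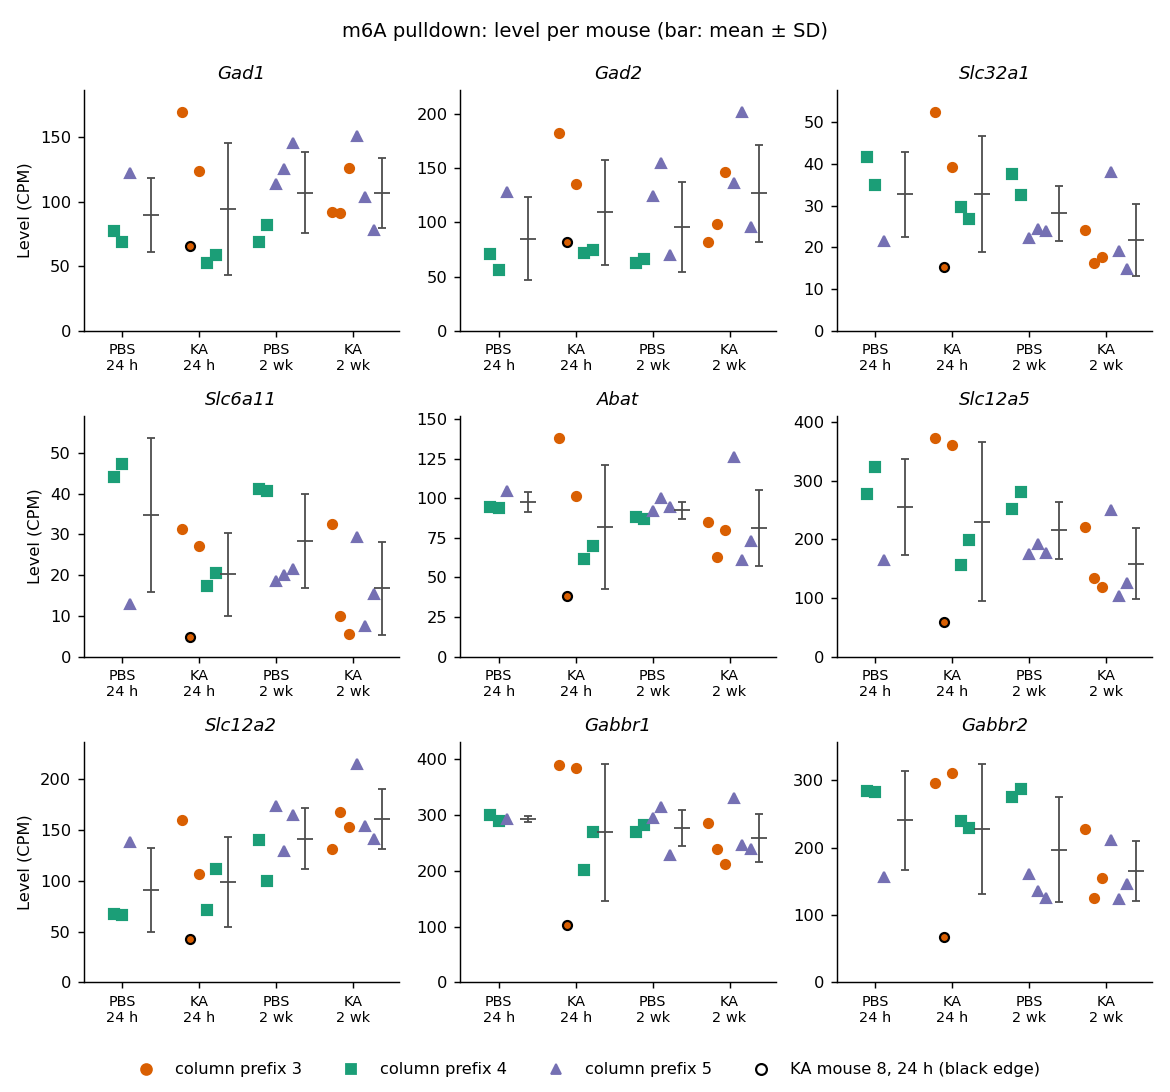
Level of the 9 members in each m6A library (CPM, vertical axis) by treatment and time, with 1 point per mouse, colour and shape for the library set (first figure of the column name), a black edge for KA mouse 8 of 24 h and bars for the group mean ± SD. The groups overlap in all 9 panels, and in the PBS mice the set 4 points (squares) and set 5 points (triangles) lie apart for Slc6a11, Gabbr2, Slc12a5 and Slc32a1, with set 4 higher, and for Gad1, with set 5 higher.

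Slc6a11 (GAT-3, the transporter that takes up GABA into astrocytes; chromosome 6, 114131241 to 114249886) had a negative difference in m6A libraries at both times that did not exceed the spread between mice. At 24 h it was at 44.0, 47.4 and 12.9 CPM in PBS mice 71, 73 and 1, and at 31.3, 27.2, 20.5, 17.3 and 4.90 CPM in KA mice 67, 98, 97, 79 and 8. Both set 4 PBS mice were above all KA mice and PBS mouse 1, of set 5, was below all KA mice but mouse 8. The log2 fold change was -0.90 (SE 0.51, 95% interval -2.03 to 0.24; edgeR adjusted p = 0.983). At 2 weeks it was at 41.1, 40.7, 18.4, 20.1 and 21.6 CPM in PBS mice 50, 78, 2, 3 and 4 and at 5.58 to 32.5 CPM with a median of 12.6 in KA mice, a log2 fold change of -0.71 (SE 0.43, 95% interval -1.62 to 0.21; edgeR adjusted p = 0.875). With library set as a block the 2-week value was -0.14 (SE 0.56). In input at 24 h, PBS mouse 1 was at 13.5 CPM and KA mice 67, 98 and 8 at 30.7, 22.3 and 5.65 CPM (log2 fold change 0.77, 95% interval -0.84 to 2.38), the same order as these 4 mice had in m6A, and PBS mice 71 and 73, the highest in m6A, had no usable input library. The sum of 8 astrocyte markers named below was 2261 CPM in that PBS library and 4346, 3859 and 824 CPM in these KA libraries, and its part in the difference was not tested. At 2 weeks PBS mice were at 24.2, 22.0 and 17.8 CPM in input and KA mice at 8.69 to 28.3 CPM with a median of 20.1 (log2 fold change -0.17, 95% interval -0.91 to 0.58).

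Slc6a11 was set beside markers of excitatory neurons and of astrocytes, the cells it is known from. Over the 19 m6A libraries, 4 of the 5 libraries with the lowest sum of 6 excitatory markers (Slc17a7, Neurod6, Camk2a, Prox1, Neurod2 and Nrgn) were among the 5 with the lowest Slc6a11, and 5 of the 5 highest were shared. With the sum of 8 astrocyte markers (Aqp4, Gja1, Gjb6, Slc1a2, Slc1a3, Aldh1l1, Fgfr3 and Gfap), 3 of the 5 lowest and 1 of the 5 highest libraries were shared. In the 13 input libraries 2 of the 3 lowest and 1 of the 3 highest were shared with the excitatory sum, and 1 of the 3 lowest and 1 of the 3 highest with the astrocyte sum. Pearson's r of the log2 levels was 0.90 with the excitatory and 0.51 with the astrocyte sum in m6A, and 0.73 and 0.68 in input. The high value was not particular to Slc6a11. With the excitatory sum in m6A, r was 0.92 for Gabbr2, 0.83 for Slc12a5 and 0.75 for Slc32a1. For the remaining members it ran from -0.46 for Gad2 to 0.63 for Gabbr1. These libraries share library set and depth with both measures, and the part of cell composition in the Slc6a11 difference was not tested.

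**Figure D3:**
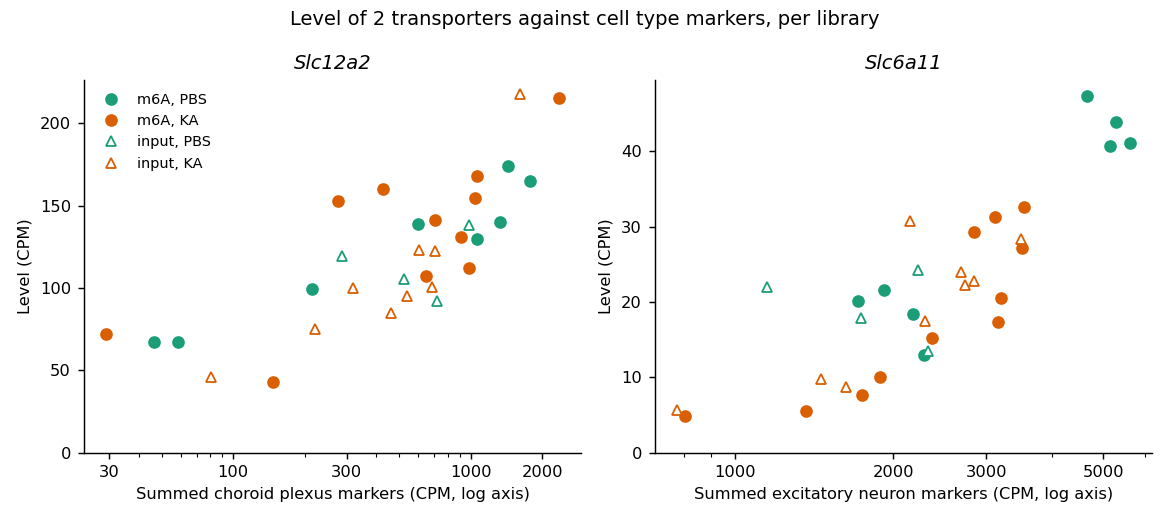
Level of Slc12a2 against the sum of 6 choroid plexus markers (left) and of Slc6a11 against the sum of 6 excitatory neuron markers (right), in CPM, with a log horizontal axis, 1 point per library, filled circles for m6A, open triangles for input and colour for treatment. Slc12a2 lies below 100 CPM in the 5 m6A libraries with the lowest choroid plexus sums, and the 4 m6A libraries with the highest Slc6a11 are PBS libraries with the highest excitatory sums.

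Abat (GABA transaminase, which breaks GABA down in mitochondria; chromosome 16, 8513429 to 8621568) had m6A levels in PBS mice that lay within the range of the KA mice at both times. In m6A libraries at 24 h it was at 94.5, 94.0 and 105 CPM in PBS mice 71, 73 and 1 and at 138, 102, 70.2, 61.4 and 37.99 CPM in KA mice 67, 98, 97, 79 and 8. The log2 fold change was -0.32 (95% interval -1.05 to 0.41). At 2 weeks PBS mice were at 88.3, 87.2, 91.9, 100.3 and 94.7 CPM and KA mice at 61.1 to 126 CPM with a median of 76.3, where only KA mouse 21 was above the PBS mice (log2 fold change -0.10, 95% interval -0.56 to 0.35). In input Abat was at 134 CPM in PBS mouse 1 and at 98.9, 104 and 53.4 CPM in KA mice at 24 h, and at 107, 88.7 and 87.2 CPM in PBS and 74.7 to 136 CPM with a median of 98.3 in KA mice at 2 weeks.

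Slc12a5 (KCC2, the neuronal transporter that extrudes chloride; chromosome 2, 164960846 to 164999731) spread widely at 24 h in KA mice. In m6A libraries it was at 277, 325 and 165 CPM in PBS mice 71, 73 and 1 and at 374, 362, 200, 156 and 59.2 CPM in KA mice 67, 98, 97, 79 and 8. The highest and the lowest values were both KA mice of set 3, and the log2 fold change was -0.24 (95% interval -1.30 to 0.83; edgeR adjusted p = 0.985). Without KA mouse 8 it was -0.01 (SE 0.37), and the KA mean of 273 CPM was above the PBS mean of 256 CPM. With all mice of 24 h and library set as a block, it was -0.89 (SE 0.67). At 2 weeks PBS mice 50, 78, 2, 3 and 4 were at 252, 282, 175, 192 and 176 CPM and KA mice at 104 to 250 CPM with a median of 130, a log2 fold change of -0.37 (95% interval -0.91 to 0.17; edgeR adjusted p = 0.875). Of the 6 KA mice, 4 were below all PBS mice. The 2-week value was -0.12 (SE 0.33) with library set as a block and -0.10 (SE 0.32) within set 5, and both rest on the same contrast. The input groups of 2 weeks were alike in range, with PBS at 162, 131 and 164 CPM and KA at 117 to 195 CPM with a median of 158 (log2 fold change 0.04, 95% interval -0.32 to 0.41). In input at 24 h PBS mouse 1 was at 226 CPM and KA mice 67, 98 and 8 at 193, 237 and 96.0 CPM.

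Slc12a2 (NKCC1, which loads chloride into cells and is also abundant in the choroid plexus) had positive differences in m6A libraries that did not exceed the spread between mice. At 24 h it was at 67.1, 66.9 and 139 CPM in PBS mice 71, 73 and 1 and at 160, 107, 112, 71.9 and 42.7 CPM in KA mice 67, 98, 97, 79 and 8 (log2 fold change 0.05, 95% interval -0.80 to 0.90). At 2 weeks PBS mice 50, 78, 2, 3 and 4 were at 140, 99.5, 174, 130 and 165 CPM and KA mice at 131 to 216 CPM with a median of 154, a log2 fold change of 0.26 (95% interval -0.16 to 0.68; edgeR adjusted p = 0.875). In input it was at 119 CPM in PBS mouse 1 and at 100.2, 94.96 and 45.9 CPM in KA mice at 24 h. At 2 weeks it was at 138, 91.8 and 106 CPM in PBS and at 74.8 to 218 CPM with a median of 111 in KA mice (log2 fold change 0.14, 95% interval -0.46 to 0.73).

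The level of Slc12a2 moved with that of choroid plexus genes. The sum of Ttr, Kl, Clic6, Folr1, Kcnj13 and Otx2, markers of that epithelium, ranged from 29.1 to 2351 CPM over the 19 m6A libraries, and the 5 libraries with the lowest sums, up to 214 CPM, were the 5 with the lowest Slc12a2, 42.7 to 99.5 CPM. PBS mice 71 and 73 of 24 h had sums of 46.2 and 58.7 CPM, against 600 CPM in PBS mouse 1, and their Slc12a2 was 67.1 and 66.9 against 139 CPM. KA mouse 21 of 2 weeks had the highest sum in both assays, 2351 CPM in m6A and 1620 CPM in input, and the highest Slc12a2 in both, 216 and 218 CPM. In the 13 input libraries, 2 of the 3 lowest and 2 of the 3 highest libraries were shared between the sum and Slc12a2. No choroid plexus marker was at 0 in all libraries of a group, and the part of that tissue in the level of Slc12a2 was not tested.

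Gabbr1 and Gabbr2 encode the obligate partners of the GABA-B receptor, with GABA bound by the former and the G protein engaged by the latter. Gabbr1 (chromosome 17, 37045966 to 37074305) in m6A libraries at 24 h was at 299, 288 and 293 CPM in PBS mice 71, 73 and 1 and at 389, 384, 270.0, 201 and 102 CPM in KA mice 67, 98, 97, 79 and 8. The PBS mice were close together and lay within the range of the KA mice (log2 fold change -0.19, 95% interval -0.97 to 0.59). Without KA mouse 8 the fold change of Gabbr1 was -0.01 (SE 0.27), with means of 311 CPM in KA and 293 CPM in PBS mice. At 2 weeks PBS mice were at 270, 281, 295, 314 and 228 CPM and KA mice at 212 to 331 CPM with a median of 243 (log2 fold change -0.03, 95% interval -0.38 to 0.32), the narrowest interval among the members in m6A libraries.

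Gabbr2 (chromosome 4, 46662318 to 46991714) at 24 h was at 285, 282 and 156 CPM in PBS mice 71, 73 and 1 and at 296, 310.4, 229, 239 and 67.1 CPM in KA mice 67, 98, 97, 79 and 8 (log2 fold change -0.15, 95% interval -1.03 to 0.72). Without KA mouse 8 the value of Gabbr2 turned to 0.05 (SE 0.27), with means of 269 CPM in KA and 241 CPM in PBS mice. With all mice of 24 h and library set as a block, it was -0.40 (SE 0.54). At 2 weeks PBS mice 50 and 78, of set 4, were at 276 and 287 CPM, and PBS mice 2, 3 and 4, of set 5, at 160.3, 136 and 125 CPM. The KA mice, at 124 to 228 CPM with a median of 151, were all below the set 4 PBS mice and overlapped those of set 5 (log2 fold change -0.17, 95% interval -0.75 to 0.40). The value turned to 0.25 (SE 0.28) with library set as a block and 0.27 (SE 0.25) within set 5, and both rest on the same contrast. In input at 2 weeks Gabbr1 was at 277, 231 and 267 CPM in PBS and 253 to 326 CPM with a median of 269.9 in KA mice, and Gabbr2 was at 189, 128 and 166 CPM and at 146 to 265 CPM with a median of 187. Their log2 fold changes were 0.14 (95% interval -0.15 to 0.42) and 0.28 (95% interval -0.14 to 0.70). In input at 24 h Gabbr1 was at 307 CPM in PBS mouse 1 and 270.4, 325 and 126 CPM in KA mice 67, 98 and 8, and Gabbr2 at 205 CPM and at 204, 282 and 90.1 CPM.

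**Figure D4:**
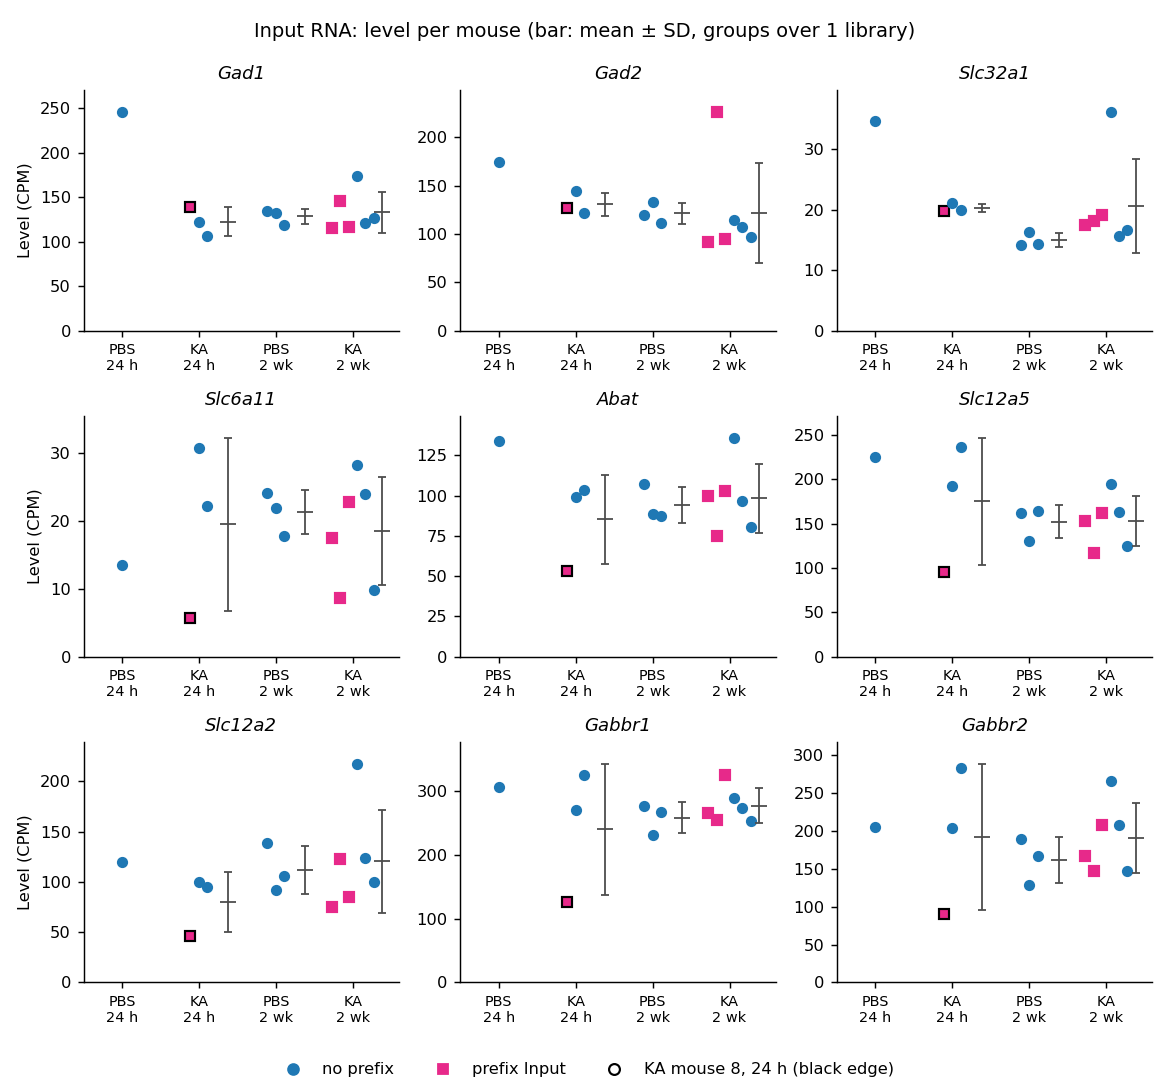
Level of the 9 members in each input library with at least 100000 counts (CPM, vertical axis) by treatment and time, with 1 point per mouse, colour and shape for the form of the column name, a black edge for KA mouse 8 of 24 h and bars for the mean ± SD of groups of over 1 library. The single PBS library of 24 h is at the top of its time point for Gad1, Gad2, Slc32a1, Abat and Slc12a2, and the groups overlap at 2 weeks in all 9 panels.

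No member separated the groups in m6A libraries at either time or in input at 2 weeks. The levels of KA and PBS mice did not overlap for 0 of 9 members in m6A libraries at 24 h, against 3.71% of genes tested, and for 0 of 9 at 2 weeks, against 0.594%. In input at 2 weeks 0 of 9 members separated the groups, against 6.44% of genes. At 24 h in input, where a single PBS library leaves only 4 libraries, 5 of 9 members (Gad1, Gad2, Slc32a1, Abat and Slc12a2) were lower in all 3 KA mice than in PBS mouse 1, against 44% of genes in either direction. Without KA mouse 8, 45 genes passed in m6A and 180 in input at 24 h, and 0 of 9 members passed in either.

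The level of most members differed between library sets in mice of the same treatment. Among the 8 m6A libraries of PBS mice, 7 of 9 members differed between set 5 and set 4 with time in the model, against 36.2% of 16182 genes (edgeR, a comparison chosen after the data were seen). Gad1 (log2 fold change 0.74, SE 0.14), Gad2 (0.89, SE 0.22) and Slc12a2 (0.61, SE 0.17) were higher in set 5, and Slc32a1 (-0.68, SE 0.13), Slc6a11 (-1.32, SE 0.20), Slc12a5 (-0.69, SE 0.14) and Gabbr2 (-0.97, SE 0.11) were lower, with adjusted p between 0.000423 and 0.0244. Abat (0.11, SE 0.11) and Gabbr1 (-0.01, SE 0.12) did not pass. The same PBS mice held a sum of excitatory neuron markers of 4669 to 5620.0 CPM in set 4 and 1713 to 2285 CPM in set 5, a sum of astrocyte markers of 3348 to 3842 and 2002 to 3879 CPM, and a sum of inhibitory neuron markers of 413 to 481 and 447 to 547 CPM. Whether the sets differ in dissection, antibody pulldown or library preparation is not given in the sources used here.

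**Figure D5:**
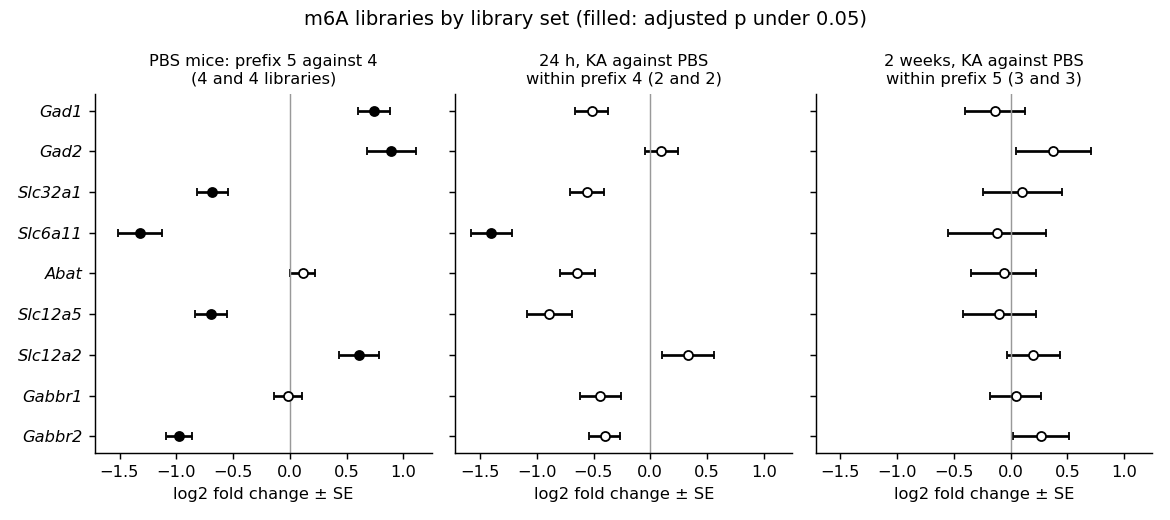
Log2 fold change ± SE of each member in m6A libraries between PBS mice of set 5 and set 4 (left), between KA and PBS mice of 24 h within set 4 (middle) and between KA and PBS mice of 2 weeks within set 5 (right), with filled points for an adjusted p under 0.05. On the left 7 members are filled, in the middle Slc6a11 alone, at -1.40, and on the right none. These comparisons were chosen after the data were seen.

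Within set 4, the only set with both treatments at 24 h, Slc6a11 was lower in the 2 KA mice, in a comparison chosen after the data were seen. It was at 20.5 and 17.3 CPM in KA mice 97 and 79 and at 44.0 and 47.4 CPM in PBS mice 71 and 73, a log2 fold change of -1.40 (SE 0.18; edgeR adjusted p = 0.0185, n = 2 in each group). It was the 1 member of 9 that passed there, against 2.11% of 16903 genes. At an unadjusted p under 0.05 in the edgeR test there were 7 of 9 members, Slc6a11 among them, beside 19.3% of all genes. All 9 members had groups that did not overlap in set 4, with 7 lower in KA mice and Gad2 and Slc12a2 higher, against 51.8% of genes. The values that came nearest to the threshold were Slc12a5 (-0.89, SE 0.20, adjusted p = 0.0737), Abat (-0.64, SE 0.15, adjusted p = 0.0861), Slc32a1 (-0.56, SE 0.15, adjusted p = 0.109) and Gad1 (-0.52, SE 0.14, adjusted p = 0.116).

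The call on Slc6a11 depended on the libraries from which the spread was estimated. With all 8 libraries of 24 h and the set as a block, its log2 fold change was also -1.40 but the SE was 0.63 and the adjusted p 1.00. Sets 3 and 5 each held a single treatment at 24 h, so this fold change came from the set 4 libraries. The other libraries bore on its SE and gave no separate estimate of the difference. In the same set 4 libraries the sum of excitatory neuron markers was 3152 to 3202 CPM in KA and 4669 to 5280 CPM in PBS mice. The sum of astrocyte markers, whose cells carry this transporter, was 5017 to 5110 CPM in KA and 3348 to 3696 CPM in PBS mice. Over all m6A libraries of 24 h, 3 of the 8 astrocyte markers had a log2 fold change above 0, with Gfap at 1.95. The median of the 8 was -0.31, and the lowest was Gja1 at -1.23. The part of these marker levels in the Slc6a11 difference was not tested. The input libraries of mice 71, 73 and 97 were too shallow for use, with at most 13 counts for any member. Mouse 79 had no input library, so the set 4 mice of 24 h gave no input value.

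Within set 5 at 2 weeks, 0 of 9 members passed, against 0% of 16017 genes, and 590 genes and 0 members had an unadjusted p under 0.05. The groups did not overlap for 0 of 9 members, against 11.2% of genes. The log2 fold changes ran from -0.14 for Gad1 to 0.38 for Gad2, and that of Slc6a11 was -0.12 (SE 0.43). Within the input libraries without a prefix, 0 of 9 members passed at 24 h, with 2 KA mice and PBS mouse 1, against 2.32% of 14718 genes. Gad1 came nearest there, at -0.88 (SE 0.23, adjusted p = 0.0663), and with Slc6a11 (1.21, SE 0.45, adjusted p = 0.149), in the direction opposite to the set 4 m6A libraries, it was 1 of 2 members with an unadjusted p under 0.05, beside 22.1% of all genes. These input mice, KA mice 67 and 98 and PBS mouse 1, were not the mice of set 4. In their own m6A libraries Slc6a11 was at 31.3, 27.2 and 12.9 CPM, the same direction as in input. At 2 weeks, with 3 mice in each group, 0 of 9 members and 0% of 12971 genes passed, and 2143 genes (16.5%) and, of the members, Slc32a1 (0.67, SE 0.30) had an unadjusted p under 0.05.

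The difference between KA and PBS mice in m6A libraries did not change detectably between 24 h and 2 weeks for any member. In the interaction test 0 of 9 members passed, against 0.00573% of 17440 genes, which was again Tm4sf1 (log2 difference -2.89, SE 0.32, adjusted p = 0.000355). The members' differences between the times ran from -0.23 for Slc32a1 (95% interval -1.13 to 0.67) to 0.23 for Abat (95% interval -0.55 to 1.00), and the intervals leave room for changes of that width.

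The ratio of m6A pulldown to input had a median near 1 over mice for most members, with a wide spread between mice. In PBS mice at 2 weeks 0 of 9 members passed the test between the assays, against 0.539% of 22654 genes, and Slc32a1 alone had an unadjusted p under 0.05, beside 11.7% of all genes (log2 difference 0.74, 95% interval 0.04 to 1.43). DESeq2 called 0 members. With the mouse as a block, 57 genes in place of 122 and again 0 members passed, and the value for Slc32a1 was 0.42 (SE 0.19). Of the 13 mice with both libraries, 11 had a higher CPM of Slc12a2 in m6A than in input, with a median ratio of 1.26 and a range of 0.930 to 2.05. Gad1 was higher in m6A in 4 of the 13 mice, with a median ratio of 0.846 (0.473 to 1.39), Gabbr2 in 4, with a median of 0.849 (0.704 to 1.45), and Abat in 3, with a median of 0.858 (0.710 to 1.40). The medians of the other members lay between 0.959 for Slc6a11 and 1.07 for Slc12a5. Since the CPM in each assay is relative to its own total, a ratio of 1 says only that a transcript had the same share of both libraries.

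Whether KA changed the m6A libraries differently from input was tested as the difference of the differences. At 24 h 0 of 9 members and 0% of 22654 genes passed, and at 2 weeks 0 of 9 and 0% of 22654 genes. At an unadjusted p under 0.05 there were 0 members and 149 genes at 24 h and 0 members and 527 genes at 2 weeks. DESeq2 called 1 gene and 8 genes, none of them members. With the mouse as a block, 8 genes and 1 gene passed, also without a member. The largest value was that of Slc6a11 at 24 h (-1.71, 95% interval -4.07 to 0.65), which rests on PBS mouse 1 as the lone input control and was -0.18 (SE 0.43) with the mouse as a block. At 2 weeks it was that of Slc32a1 (-0.79, 95% interval -1.66 to 0.08), which was -0.55 (SE 0.23) with the block.

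Other genes of the pathway were counted as 4 lists with 32 genes: precursor supply and other synthesis, uptake and breakdown, chloride and bicarbonate, and GABA-B partners. With edgeR 0 of 32 passed in m6A libraries at 24 h, 0 of 32 at 2 weeks, 0 of 32 in input at 24 h and 0 of 31 tested in input at 2 weeks, and at an unadjusted p under 0.05 the counts were 2, 0, 3 and 5, beside 5.31%, 5.01%, 9.23% and 14.1% of all genes. DESeq2 called 0 of them in each comparison. Their median log2 fold changes were -0.19, -0.06, -0.08 and 0.04, beside 0.08, -0.00, 0.27 and 0.02 over all genes. The GABA-B partners, which are the auxiliary subunits Kctd8, Kctd12 and Kctd16, the potassium channel subunits Kcnj3, Kcnj6 and Kcnj9 and the G protein subunit Gnao1, had values below 0 for 7 of 7 genes in m6A at 24 h (median -0.38), in m6A at 2 weeks (median -0.18) and in input at 24 h (median -0.23), but for 2 of 7 in input at 2 weeks (median 0.04). Of all genes, 42.0%, 50.2%, 34.0% and 47.6% were below 0 in these comparisons. The 6 excitatory neuron markers were below 0 for 6 of 6 in m6A at 24 h (median -0.43) and at 2 weeks (median -0.42), for 3 of 6 in input at 24 h (median -0.05) and for 0 of 6 in input at 2 weeks (median 0.65), and their part in the values of the GABA-B partners was not tested.

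The members as a whole did not vary as a block. Over the 19 m6A libraries, 27 of the 36 pairs of members had a positive Pearson correlation of log2 CPM. The median was 0.51 and the range -0.55 to 0.88, and no value over all gene pairs is given beside them. Slc32a1, Slc6a11, Slc12a5 and Gabbr2 did vary together, with r between 0.77 and 0.88 in every pair. In PBS mice these were also the members whose levels all lay lower in set 5 than in set 4. The points share library set and depth, and the part of library set in these correlations was not tested. The genes most like each member among 17439 others, by the same measure and over the same libraries, were March6 and Rab14 for Gad1 (r of 0.94 and 0.93), Atp6v1h, Cox7c and Ndufb5 for Gad2 (0.93, 0.93 and 0.92) and Cacna1i, Prkaca and Sez6l2 for Slc32a1 (0.90, 0.89 and 0.89). For Slc6a11 they were Dmtn, Sh3bp1 and Pitpnm1 (0.96, 0.95 and 0.95) and for Abat Nsg2, Sort1 and Aagab (0.96, 0.94 and 0.93). For Slc12a5 they were Gm15800, Klc2 and Tln2 (0.97, 0.96 and 0.96), for Slc12a2 Enpp2, Ryk and Slco1c1 (0.90, 0.88 and 0.88), for Gabbr1 Aplp2, Usp11 and Hdac11 (0.96, 0.93 and 0.91) and for Gabbr2 Spock2, Vamp2 and Syn1 (0.96, 0.96 and 0.96).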

How the data were processed

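The authors deposited raw read counts per gene and sequencing lane, and the counts of 4 lanes were summed per library. The submitters' processing notes name the mouse build mm10. No source used here names the aligner, the counter, the annotation or the strand setting of the counting. Without strand, reads of Gad1 and of an antisense transcript cannot be told apart. For 27 of 35 libraries the column name does not spell out the assay, which was taken from the prefix and the mouse number. The tables hold 8 further lane columns that matched no labelled sample and were not used. Columns of the authors' own comparisons were not used.

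Input libraries under 100000 counts were left out (3 of 16). Levels are CPM of all counts. Differences were tested on the counts with edgeR 4.0.16 (TMM scaling, filterByExpr, robust quasi-likelihood F test) in R 4.3.3, with Benjamini-Hochberg adjustment over all genes tested and a threshold of 0.05. In input at 24 h the lone PBS library was assumed to vary like the other input groups. The alternatives were DESeq2 1.42.0, scaling by library size, no filter on low counts, library set as a block, other groups in the fit, shallow libraries included, the mouse as a block, and leaving out each library. Mice are separate animals, so n counts mice. Libraries of the same mouse were paired: the deviations of 12 mice from their group means correlated between assays with a median r of 0.37 (-0.06 to 0.89), over 0.1 in 10. The named genes are the 9 members, any pathway gene past the threshold (at most 3 a comparison), and the 3 genes most correlated with each member. Some genes of the lists and of these sets are not reported here, and sums and list counts leave them out. The members and lists were chosen with earlier results of these data known. The procedure was tested on simulated counts. Intervals cover the spread between these mice only. Gene positions are from RefSeq on GRCm38, and transcripts from GENCODE M39.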

Additional observations from a re-analysis of the deposited data

Results flagged for a closer look

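In 4 of 36 cases, each 1 member in 1 group of 5 or 6 libraries, 1 library lay far from the others of its group. About 1 in 20 would by chance if the cases were independent, but the members share the same libraries. In KA mice at 2 weeks, the input library of mouse 7 held 227 CPM of Gad2, and that of mouse 21 held 218 CPM of Slc12a2 and 36.2 CPM of Slc32a1. The m6A library of mouse 21 held 126 CPM of Abat. Mouse 21 also had the highest sum of choroid plexus markers in both assays, 1620 and 2351 CPM. Their part in these values was not tested.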

How the results depend on the processing

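Of 132 recomputed counts of members past the threshold, 1 was not 0: within library set 4 at 24 h, 1 member passed, Slc6a11 at -1.40. The comparisons within a library set were chosen after seeing the data. Counts over all genes moved more. In m6A at 24 h, 1 gene became 3 with scaling by library size, 22 with no filter on low counts, 156 with DESeq2, 31 with all m6A groups in the fit, 356 within set 4 and 0 with library set as a block. In m6A at 2 weeks, 0 became 2 with no filter, 15 with DESeq2 and 1 with all m6A groups. In input at 24 h, 0 became 1 with scaling by library size, 3 with no filter, 176 with DESeq2, 2 with the set as a block, 75 with the shallow libraries and 342 within the unprefixed libraries. In input at 2 weeks, 0 became 4 with no filter and 116 with DESeq2. Between the times, 1 became 5 with DESeq2 and 2 with the set as a block. Between m6A and input, 122 became 249 with scaling by library size and 491 with DESeq2. For the KA effect in m6A against input, 0 became 1 at 24 h and 8 at 2 weeks with DESeq2. The cause of these shifts was not tested.

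With the mouse as a replicate block, pairing the libraries of a mouse, 57 genes passed between m6A and input, and 8 genes at 24 h and 1 gene at 2 weeks for the KA effect in m6A against input, with 0 members in each. The block turned the sign of Slc6a11 (-0.33) and Gabbr2 (-0.43) between m6A and input, of Slc12a5 at 24 h (0.48) and of Gad1 at 2 weeks (-0.28). In m6A at 24 h, Gad1 turned to -0.52 with library set as a block and also to -0.52 within set 4. At 2 weeks Slc32a1 turned to 0.082 with the set as a block and 0.10 within set 5, and Gabbr2 to 0.27 within set 5. At each time a single set held both treatments, so the block and the fit within that set rest on the same contrast. In input at 2 weeks, leaving out 1 library moved Gad2 between -0.22 (without KA mouse 7) and 0.14.

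Leaving out 1 library gave 0 to 45 genes in m6A at 24 h and 1 to 180 in input at 24 h, the highest in both without KA mouse 8. It gave 0 to 1 in each 2-week comparison, 1 to 1 between the times, 37 (without the input library of PBS mouse 3) to 137 between m6A and input, and 0 to 0 for the KA effect in m6A against input. Members past the threshold were 0 to 0 throughout. Scaling by library size moved the median over all genes in input at 24 h by -0.31. Library set as a block between m6A and input, and input at 24 h without PBS mouse 1, could not be fitted. The 1 PBS input library at 24 h and the unequal spread of treatments over library sets limit these results.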
